A study of Mus musculus with 28 samples.

Results

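Cytosine methylation at CpG dinucleotides is written by DNA methyltransferases and removed stepwise after oxidation by the ten-eleven translocation (TET) dioxygenases. Dnmt1 copies methylation onto newly replicated strands, Dnmt3a and Dnmt3b methylate unmodified sites, and Tet1, Tet2 and Tet3 oxidise 5-methylcytosine to 5-hydroxymethylcytosine and further forms that base excision repair can replace. In brain, Dnmt3a also writes the non-CpG methylation of maturing neurons, and 5-hydroxymethylcytosine is abundant in neurons. These 6 genes, 3 methyltransferases and 3 dioxygenases, were taken from the 52636 genes of the count tables by their Ensembl identifiers, and all 6 were found and passed the filter on low counts.

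RNA came from the ventromedial prefrontal cortex of 28 female mice, 7 per group, each injected with a virus. The groups were mice given the virus labelled Slit1 KD and 3 days of stress (procedure abbreviated sCVS), mice given the Lac_Z control virus and the same stress, unstressed mice given the Slit1 KD virus, and unstressed mice given the Lac_Z virus. They are called KD stressed, LacZ stressed, KD unstressed and LacZ unstressed. Strain, age, promoter and the cells infected were not given in the sources used here, and the punched tissue held all cell types, so fewer cells of a type and less RNA per cell cannot be told apart.

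Library totals ran from 30.6 M to 44.3 M counted fragments with a median of 39.6 M. Libraries differed far beyond their groups: the first principal component held 58.8% of the variance, and it followed the GC slope of the library (r = 0.996). The GC slope is how far a library's log2 CPM (counts scaled to a common library size) rise per 10 percentage points of transcript GC content, relative to the mean library, and it ran from -1.17 to 1.21. Summed neuronal markers lay between 3093 and 9087 CPM in all libraries, while Tubb3, Gfap, Gpr17, P2ry12 and Itgam were listed at 0 in every library. Slit1 itself averaged 18.2 ± 9.8 CPM in KD stressed and 19.8 ± 10.2 CPM in LacZ stressed mice, and 25.9 ± 17.5 CPM in KD unstressed and 24.4 ± 16.1 CPM in LacZ unstressed mice (SD, n = 7 each). The log2 fold change of Slit1 was -0.12 ± 0.43 with stress and 0.09 ± 0.43 without (± SE, edgeR adjusted p = 1 for both), so a lower Slit1 level in the KD groups was not detected in these libraries, and KD stands here for the label.

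The 6 genes are the machinery of CpG methylation, and CpG was also counted at their own start sites. Sequences from 250 bases before to 50 bases after each annotated start were read from RefSeq (GRCm38.p6), where all 6 genes matched. The dinucleotide CG, which reads the same on both strands, occurred in 94.6% of 32851 such windows, with a median of 7 per window. Dnmt1 and Dnmt3a have 3 windows each and the other genes 1. Of each gene's richest window, Tet2 held 57 CpG, Dnmt3a 47, Dnmt1 33, Dnmt3b 30, Tet3 22 and Tet1 17. Only 0.152% of all windows held as many CpG as that of Tet2, against 31.4% for Tet1. The other windows of Dnmt1 held 2 and 12 CpG, and 85.9% and 39.6% of all windows held at least as many. The other windows of Dnmt3a held 46 and 18 (1.65% and 29.7%). Below are 4 windows, each 5′ to 3′ on the gene's strand with every CG in capitals: Tet2 and Tet1 as the 2 extremes of the richest windows, and Dnmt3a and Tet3 as the pair of genes with the highest Pearson r over all 28 libraries.
Tet2 (chr3:133544341-133544640, minus strand): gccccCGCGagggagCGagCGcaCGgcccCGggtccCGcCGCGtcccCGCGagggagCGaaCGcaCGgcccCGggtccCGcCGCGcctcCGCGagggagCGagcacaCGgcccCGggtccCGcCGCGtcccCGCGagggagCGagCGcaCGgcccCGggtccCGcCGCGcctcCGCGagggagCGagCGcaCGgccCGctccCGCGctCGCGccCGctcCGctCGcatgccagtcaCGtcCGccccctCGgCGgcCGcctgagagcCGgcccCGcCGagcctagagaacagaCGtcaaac
Tet1 (chr10:62887275-62887574, minus strand): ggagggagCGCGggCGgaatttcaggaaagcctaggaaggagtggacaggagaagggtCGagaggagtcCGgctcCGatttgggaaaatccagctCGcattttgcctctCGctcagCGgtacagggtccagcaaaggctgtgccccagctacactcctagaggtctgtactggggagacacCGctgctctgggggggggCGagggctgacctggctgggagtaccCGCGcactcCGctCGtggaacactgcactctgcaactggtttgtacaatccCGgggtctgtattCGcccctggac
Dnmt3a (chr12:3806910-3807209, plus strand): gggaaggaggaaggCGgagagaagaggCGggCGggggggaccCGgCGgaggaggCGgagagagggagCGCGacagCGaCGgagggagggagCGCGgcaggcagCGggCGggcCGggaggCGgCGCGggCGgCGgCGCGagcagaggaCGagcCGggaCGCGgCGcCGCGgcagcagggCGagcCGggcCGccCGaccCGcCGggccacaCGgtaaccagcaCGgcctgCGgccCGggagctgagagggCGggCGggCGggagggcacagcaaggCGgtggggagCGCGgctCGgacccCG
Tet3 (chr6:83441629-83441928, minus strand): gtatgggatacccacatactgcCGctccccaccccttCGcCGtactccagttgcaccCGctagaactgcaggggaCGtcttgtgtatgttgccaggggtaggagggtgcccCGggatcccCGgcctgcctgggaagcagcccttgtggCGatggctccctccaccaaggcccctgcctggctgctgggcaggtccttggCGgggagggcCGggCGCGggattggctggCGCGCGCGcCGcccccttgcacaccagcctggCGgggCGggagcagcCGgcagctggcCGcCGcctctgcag
Methylation of these windows was not measured, so the sequences describe the loci and not their state. The GC content of the Tet2 window was 81.3%, the highest of the richest windows, and that of the Tet1 window 61.7%, the lowest. In transcript GC content both genes were the lowest of the 6, at 45.4% and 43.7%.

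All 6 genes are protein coding, and fragments were counted over the whole gene span, introns included. Exons made up between 13.3% of the span (Dnmt3b) and 20.7% (Tet2). On GRCm38, Dnmt1 lies at chr9:20907209-20959888, Dnmt3a at chr12:3806007-3914443 and Dnmt3b at chr2:153649450-153687730. Tet1 lies at chr10:62804570-62908996, Tet2 at chr3:133463679-133545139 and Tet3 at chr6:83362373-83459084. Other annotated genes, a fragment shared with which was assigned to neither, covered 10.6% of the Tet3 span, 2.72% of Dnmt3a (the antisense gene Dnmt3aos), 2.19% of Dnmt3b (Dnmt3bos), 1.89% of Tet1, 0.142% of Dnmt1 and 0.0528% of Tet2. Counting used no strand option, so sense and antisense fragments outside those overlaps were not separated.

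Per kilobase of gene span, Tet2 had the highest level of the 6, at 1.30 ± 0.202 CPM per kb (SD, n = 28 for all levels here). Dnmt3a followed at 0.682 ± 0.213, Dnmt1 at 0.658 ± 0.337 and Tet3 at 0.501 ± 0.12 CPM per kb. Tet1 stood at 0.243 ± 0.0387 and Dnmt3b at 0.0527 ± 0.0139 CPM per kb. Tet2 was above Dnmt3a in 27 of 28 libraries, by 0.97 ± 0.55 log2 units (mean and SD over libraries). Tet3 was above Tet1 in 28 of 28 libraries by 1.02 ± 0.46 log2 units, and Tet1 above Dnmt3b in 28 of 28 by 2.24 ± 0.60. Neighbours Dnmt3a and Dnmt1 (0.18 ± 0.44 log2 units) and Dnmt1 and Tet3 (0.24 ± 0.59) did not differ beyond their spread. Per kilobase of merged exons the order of the mean levels was Tet2, Dnmt1, Dnmt3a, Tet3, Tet1 and Dnmt3b, and Tet2 and Dnmt1 then did not differ beyond their spread (0.59 ± 0.91 log2 units, Tet2 higher in 19 of 28 libraries). Nor did Dnmt1 and Dnmt3a, with a mean log2 difference of the opposite sign (-0.04 ± 0.44) and Dnmt1 higher in 12 of 28 libraries.

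Among the methyltransferases, Dnmt1 varied most between mice of the same group. In KD stressed mice it had a lowest, median and highest level of 19.6, 32.2 and 65 CPM, against 14.5, 23.5 and 67.1 CPM in LacZ stressed mice. In KD unstressed mice the corresponding levels were 9.69, 32.4 and 65.1 CPM, against 17, 24.8 and 72.9 CPM in LacZ unstressed mice. Every group thus held both low and high libraries and all 4 ranges overlapped. Over all 28 libraries the highest level of Dnmt1 was 7.52-fold the lowest, the widest range of the 6 genes, and groups accounted for 0.84% of the variance of its log2 CPM.

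Dnmt3a, the main de novo methyltransferase of neurons, had levels of 46.3, 57.8 and 98.8 CPM (lowest, median, highest) in KD stressed mice, against 55.9, 60.1 and 106 CPM in LacZ stressed mice. In KD unstressed mice it had 52.2, 67.6 and 127 CPM, against 52.2, 61.8 and 123 CPM in LacZ unstressed mice. The highest library of each group stood well above its median, and the 4 groups overlapped almost fully. Dnmt3b was the least abundant, with 17 to 165 fragments per library. It had 1.8, 2.2 and 3.13 CPM in KD stressed mice, against 1.52, 2.23 and 2.7 CPM in LacZ stressed mice. In KD unstressed mice it had 0.896, 1.85 and 2.64 CPM, against 1.09, 1.73 and 2.49 CPM in LacZ unstressed mice. The lowest libraries of Dnmt3b were unstressed ones, and groups accounted for 11.1% of its variance, the largest share of the 6 genes. Sampling alone also gives groups a share of the variance, which was not computed, so this share does not by itself show a group effect.

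The TET genes varied less. Tet1, which binds CpG-rich DNA through a CXXC domain, had 20.1, 25.2 and 28 CPM in KD stressed mice, against 18.2, 25.3 and 32.4 CPM in LacZ stressed mice. Tet1 had 21, 23.7 and 32.8 CPM in KD unstressed mice, against 21.1, 26.5 and 30.5 CPM in LacZ unstressed mice. Its overall range was only 1.8-fold, the narrowest of the 6 genes. Tet2, which lacks a CXXC domain of its own, had 89.8, 96.5 and 134 CPM in KD stressed mice, against 86.3, 101 and 121 CPM in LacZ stressed mice. Tet2 had 91, 110 and 152 CPM in KD unstressed mice, against 78.4, 114 and 121 CPM in LacZ unstressed mice. The highest Tet2 libraries were thus 1 KD stressed and 1 KD unstressed library, with the medians of the 4 groups between 96.5 and 114 CPM.

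Tet3, a TET gene known from the zygote and from neurons, had 35.1, 41 and 59.2 CPM in KD stressed mice, against 38.1, 42.8 and 61 CPM in LacZ stressed mice. Without stress, it had 43.7, 47.5 and 90.2 CPM in KD unstressed mice, against 37.2, 46.3 and 63.5 CPM in LacZ unstressed mice. The value of 90.2 CPM was that of KD unstressed library 2, and the next highest library of its group had 61.8 CPM.

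**Figure D1:**
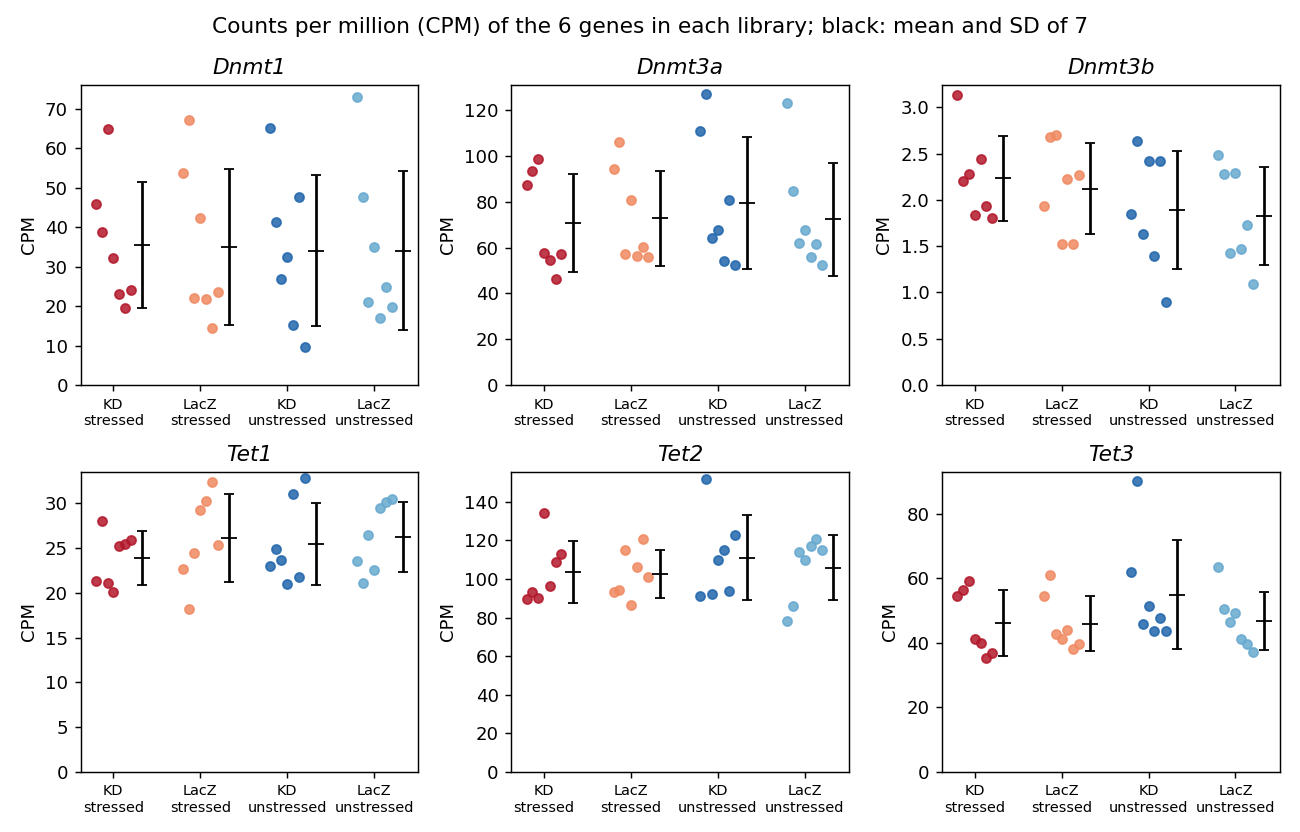
CPM (TMM-scaled, linear axis from 0) of the 6 genes in each of 28 libraries, by group (KD stressed, LacZ stressed, KD unstressed, LacZ unstressed), with the mean and SD of 7 libraries in black. The groups overlap for every gene, and a single KD unstressed library stands apart for Tet3 at 90.2 CPM.

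The design crosses virus with stress, and the first question is whether the Slit1 KD virus changed these genes in stressed or in unstressed mice. No member passed an adjusted p of 0.05 (edgeR quasi-likelihood test over 19171 genes, Benjamini-Hochberg), and all 6 had an adjusted p of 1. With stress, 0 of 6 members were called, against 0.00% of all genes tested, and without stress likewise 0 of 6, against 0.00%. At an unadjusted p under 0.05 there were 158 genes with stress (0.824%) and 172 without (0.897%), none of them a member.

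Between KD stressed and LacZ stressed mice, the largest member difference was that of Tet1, a log2 fold change of -0.13 ± 0.14 (SE, 95% interval -0.41 to 0.15). Dnmt1 had 0.02 ± 0.40 (-0.81 to 0.85), so for this gene a change of up to 1.8-fold lies within the interval. Between KD unstressed and LacZ unstressed mice the largest was Tet3, at 0.23 ± 0.17 (-0.12 to 0.58), and it was 0.07 without KD unstressed library 2. Dnmt3a had 0.14 ± 0.23 (-0.35 to 0.62) and -0.02 without that library. The other members lay between -0.04 and 0.07 in the unstressed comparison and between -0.04 and 0.07 in the stressed one.

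The second question is whether 3 days of stress changed them under either virus. Under the LacZ virus 0 of 6 members were called, against 0.00% of all genes, with 77 genes (0.402%) at an unadjusted p under 0.05. Under the KD virus 0 of 6 were called, against 0.00%, with 343 genes (1.79%) at an unadjusted p under 0.05, and none was a member in either comparison. All members again had an adjusted p of 1 (edgeR).

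Dnmt3b had the largest positive differences with stress, a log2 fold change of 0.23 ± 0.23 in KD stressed over KD unstressed mice (-0.23 to 0.70) and 0.21 ± 0.23 in LacZ stressed over LacZ unstressed mice (-0.25 to 0.68). Averaged over the viruses it was 0.22 ± 0.16 (-0.11 to 0.55, unadjusted p = 0.175). All 7 KD stressed libraries, and 5 of 7 LacZ stressed libraries, lay above the mean of their unstressed group on the log2 scale. The KD unstressed mean includes library 7, the lowest of all at 0.896 CPM and 17 fragments. KD stressed libraries 4 and 7, at 1.84 and 1.8 CPM, lay below the KD unstressed median of 1.85 CPM. Summed markers of cycling cells had a median of 262 CPM in KD stressed and 185 CPM in KD unstressed mice, and 255 CPM in LacZ stressed and 115 CPM in LacZ unstressed mice. All 8 of these markers were detected, with sums from 17.9 to 424 CPM across libraries, and their part in the Dnmt3b values was not tested.

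Tet3 had the largest negative difference, -0.25 ± 0.17 in KD stressed over KD unstressed mice (-0.60 to 0.10), and -0.09 without KD unstressed library 2. Under LacZ it was -0.03 ± 0.17 (-0.38 to 0.32). The differences between these 2 stress effects were also tested as an interaction, for which 0 of 6 members were called against 0.00% of all genes (68 genes, 0.355%, at an unadjusted p under 0.05). The interaction of Tet3 was -0.22 ± 0.24 (-0.71 to 0.27) and that of Dnmt3a -0.18 ± 0.33 (-0.86 to 0.50). Averaged over stress, 0 of 6 members were called for the KD virus, against 0.00% (291 genes, 1.52%, at an unadjusted p under 0.05). Averaged over virus, 0 of 6 were called for stress, against 0.00% (424 genes, 2.21%).

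**Figure D2:**
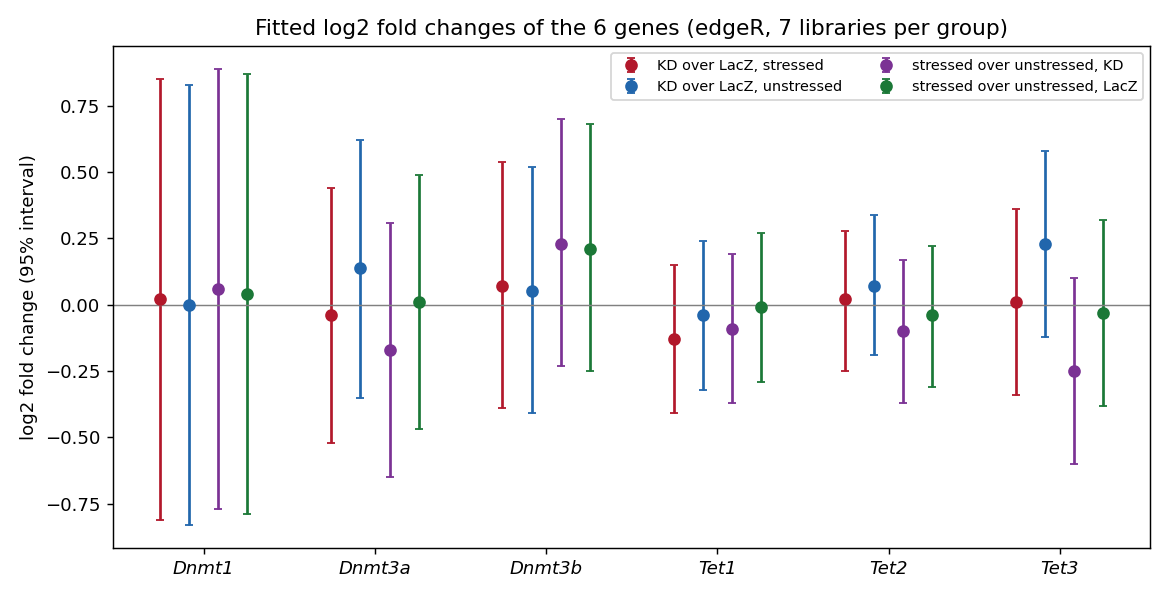
Fitted log2 fold changes of the 6 genes in the 4 comparisons of 2 groups, with 95% intervals (edgeR, 7 libraries per group; positive means higher in the KD group or in the stressed group). Every interval crosses 0, and those of Dnmt1 are the widest, reaching from about -0.83 to 0.89.

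DESeq2 and limma voomWithQualityWeights likewise called 0 genes in each of these 7 comparisons, with 73 to 606 and 576 to 1258 genes at an unadjusted p under 0.05. Exact two-sided permutation tests of each member's mean log2 CPM in the 4 comparisons of 2 groups gave a smallest p of 0.242 (Dnmt3b, KD stressed against KD unstressed, 24 tests, adjusted p = 0.978). The smallest p this design allows is 0.000583.

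The spread within groups was examined next. The GC slope of the library accounted for 95.1% of the variance of log2 CPM for Dnmt1 and 87.2% for Dnmt3a. It accounted for 58.6% for Tet3, 44.8% for Tet1, 40.1% for Tet2 and 35.5% for Dnmt3b. Dnmt1 was higher in libraries of high slope, by 1.14 log2 units per unit of slope, and so were Dnmt3a (0.60), Dnmt3b (0.37) and Tet3 (0.36). Tet1 and Tet2 had slopes of the opposite sign, -0.24 and -0.21 log2 units. The library with the lowest slope, KD unstressed library 7, had the lowest Dnmt1 and Dnmt3b levels and the highest Tet1 level of all 28. The library with the highest slope, LacZ unstressed library 1, had the highest Dnmt1 and the lowest Tet2 level.

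**Figure D3:**
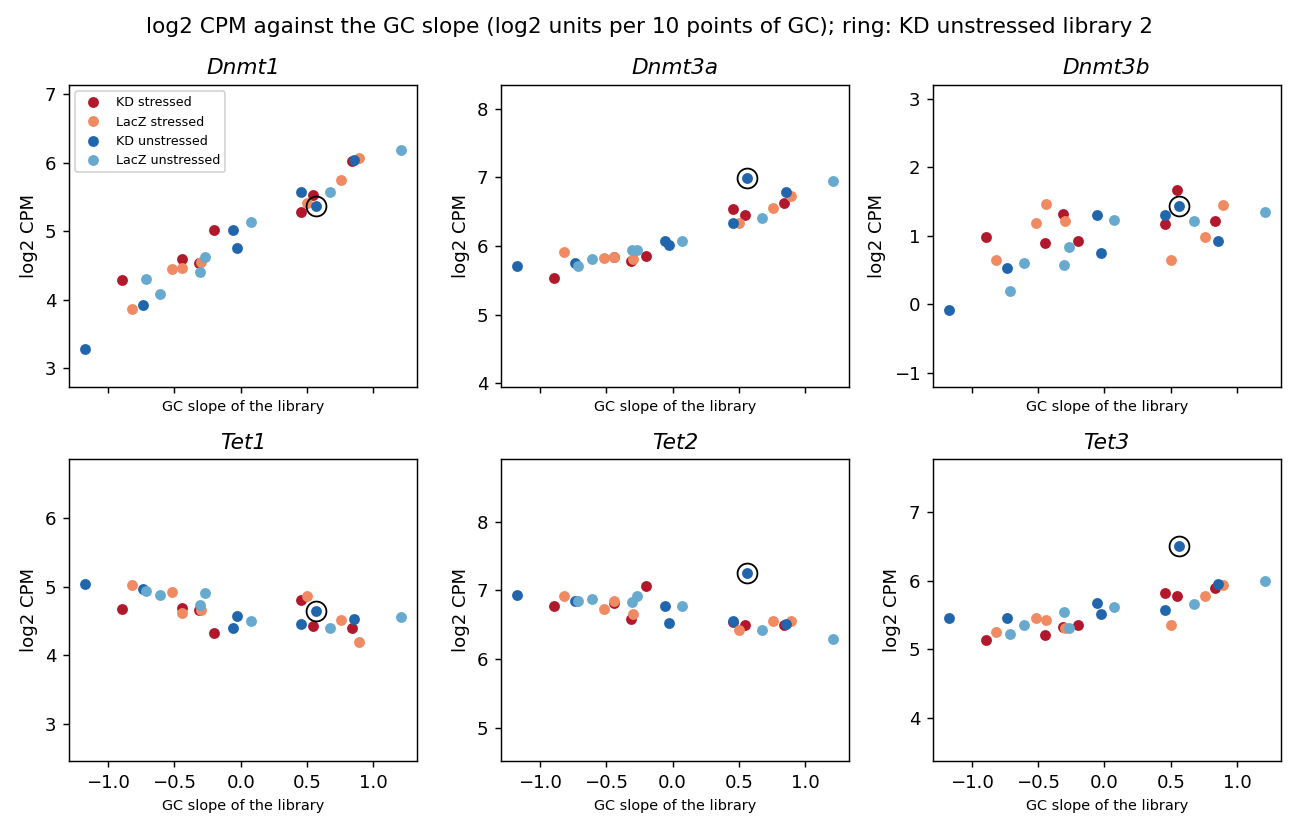
Log2 CPM of the 6 genes (vertical axis, the same span in every panel) against the GC slope of the library (horizontal axis), coloured by group, with KD unstressed library 2 ringed. Dnmt1 follows the slope in all 4 groups alike, and the ringed library lies above the others of similar slope for Dnmt3a, Tet2 and Tet3.

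Over the 28 libraries, Pearson's r with the GC slope was 0.98 for Dnmt1 (Spearman's rho 0.98), 0.93 for Dnmt3a (0.93), 0.77 for Tet3 (0.80) and 0.60 for Dnmt3b (0.56). The r was -0.67 for Tet1 (rho -0.73) and -0.63 for Tet2 (-0.67). Permutation p-values adjusted over 54 relations ranged from 4.9e-05 for Dnmt1, Dnmt3a and Tet3 to 0.00178 for Dnmt3b. Without the 2 libraries farthest from the median slope the values were 0.97, 0.93, 0.78, 0.49, -0.65 and -0.55 in the same order of genes. Such relations were common in these libraries: 69.8% of all genes tested had an absolute r of at least 0.5 with the slope, and 27.7% of at least 0.9, which Dnmt1 and Dnmt3a also passed. The signs for Tet1 and Tet2 depend on the scaling, since with CPM of the unscaled library total both became positive (0.49 and 0.40), whereas Dnmt1, Dnmt3a, Dnmt3b and Tet3 stayed positive (0.97, 0.98, 0.75 and 0.92).

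Ratios of 2 genes within a library do not depend on scaling. The ratio of Dnmt1 to Tet2 CPM had a lowest, median and highest value of 0.18, 0.239 and 0.721 in KD stressed mice, against 0.12, 0.232 and 0.71 in LacZ stressed mice. In KD unstressed mice it was 0.0788, 0.293 and 0.715, against 0.146, 0.205 and 0.929 in LacZ unstressed mice. Its highest value was thus 11.8-fold its lowest, with full overlap of the groups, and its log2 followed the GC slope with r = 0.97. The ratio of Dnmt1 to Tet1 spanned 12.5-fold (0.295 to 3.68, r = 0.95) and that of Dnmt3a to Tet2 3.71-fold (0.424 to 1.57, r = 0.96).

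The sign of a gene's relation with the slope went with the GC content of its longest transcript, which the slope was computed from. Tet1 (43.7% GC) and Tet2 (45.4%) fall in the range of 43 to 46%, where 16.4% of 2999 genes had a positive r. Dnmt3a (51.9%), Dnmt3b (53.1%), Tet3 (53.4%) and Dnmt1 (54%) fall in that of 51 to 55%, where 86.6% of 3632 genes did. Each member had the sign of most genes of its GC content, and the split did not follow the enzyme family, since Tet3 stood with the methyltransferases.

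**Figure D4:**
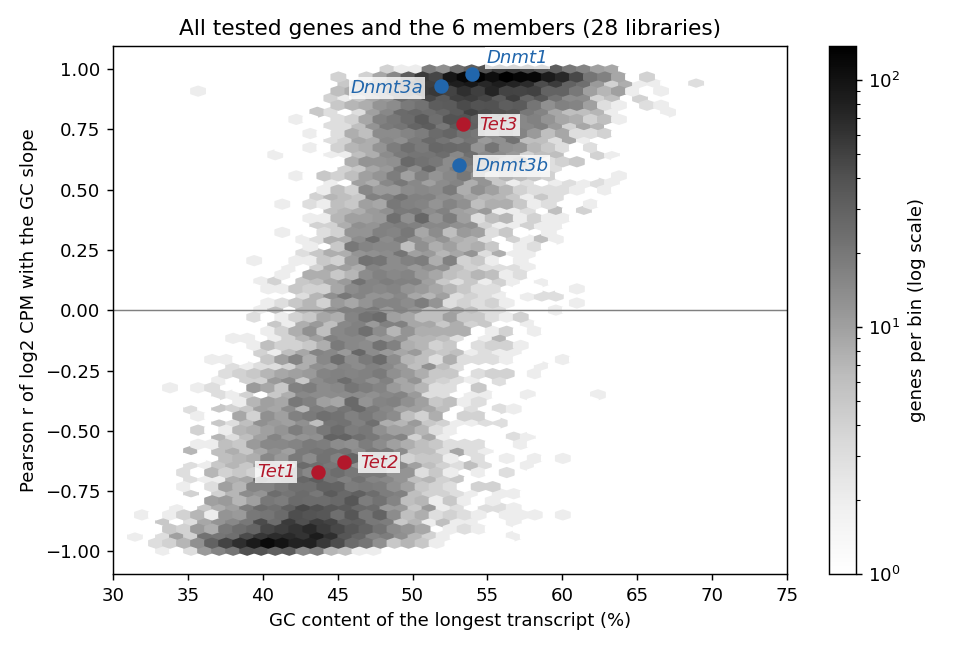
Pearson r of log2 CPM with the GC slope over 28 libraries (vertical axis) against the GC content of the longest transcript (horizontal axis) for all tested genes (grey, genes per bin on a log scale) and the 6 members (blue methyltransferases, red TET genes). Tet1 and Tet2 lie among genes of low GC content and negative r, the other 4 among genes of high GC content and positive r.

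Titles of the samples carry numbers, which are not stated to be batches. Numbers above 20 fell to 3 KD stressed, 3 LacZ stressed, 5 KD unstressed and 2 LacZ unstressed libraries. Most libraries numbered above 20 had a negative GC slope, and most of those up to 20 a positive one. By accession order, libraries 1 and 2 of every group had a positive slope, and libraries 5 and 7 a negative one. Whether this order reflects a batch cannot be told from the labels. Within the 15 libraries numbered up to 20, r with the GC slope was 0.98 for Dnmt1, 0.97 for Dnmt3a, 0.85 for Tet3, 0.43 for Dnmt3b, -0.42 for Tet1 and -0.84 for Tet2. Within the 13 numbered above 20 it was 0.95, 0.85, 0.69, 0.77, -0.72 and 0.03 in the same order. The second set holds KD unstressed library 2, and over all libraries without that one the r of Tet2 was -0.83. The r of Tet2 in the second set without that library was not computed. The value of 0.03 therefore does not show that Tet2 was unrelated to the slope in the other libraries of the set.

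The members also moved with one another. Dnmt3a and Tet3 had the highest Pearson correlation of the 15 pairs, r = 0.90 (rho 0.86, permutation p = 1e-05, the smallest that 100000 permutations give, adjusted p = 7.5e-05). It held within both sets of title numbers (0.91 and 0.92), and remained at 0.81 once the GC slope was removed from both genes (adjusted p = 0.00015). It was 0.64 when KD unstressed library 2 was left out as well (adjusted p = 0.00555). Dnmt1 and Dnmt3a correlated at 0.88 (rho 0.89, p = 1e-05, adjusted p = 7.5e-05), and were the closer pair by rho, among title numbers up to 20 (0.94) and without KD unstressed library 2 (0.91 against 0.90). Their r was -0.45 with the slope removed (adjusted p = 0.0369) and -0.40 also without that library (adjusted p = 0.108).

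Dnmt1 and Tet1 had r = -0.75 (rho -0.76, permutation p = 2e-05, adjusted p = 1e-04), and -0.59 with the GC slope removed (adjusted p = 0.00742). Dnmt3b and Tet1 had -0.69 (rho -0.68, p = 4e-05, adjusted p = 0.00012), and -0.49 with the slope removed (adjusted p = 0.0321). With CPM of the unscaled total these 2 pairs had r = 0.45 and 0.39, the opposite sign. Tet2 correlated with Dnmt3a at -0.44 (rho -0.52, p = 0.0186, adjusted p = 0.0232) and with Tet3 at -0.17 (rho -0.43, p = 0.382, adjusted p = 0.382). With the slope removed both were positive, 0.54 and 0.63 (adjusted p = 0.0369 and 0.0321). They were 0.06 and 0.14 with the slope removed and KD unstressed library 2 left out as well. Leaving out that library alone, with the slope not removed, they were -0.78 and -0.65 (adjusted permutation p = 2.5e-05 and 0.000562).

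**Figure D5:**
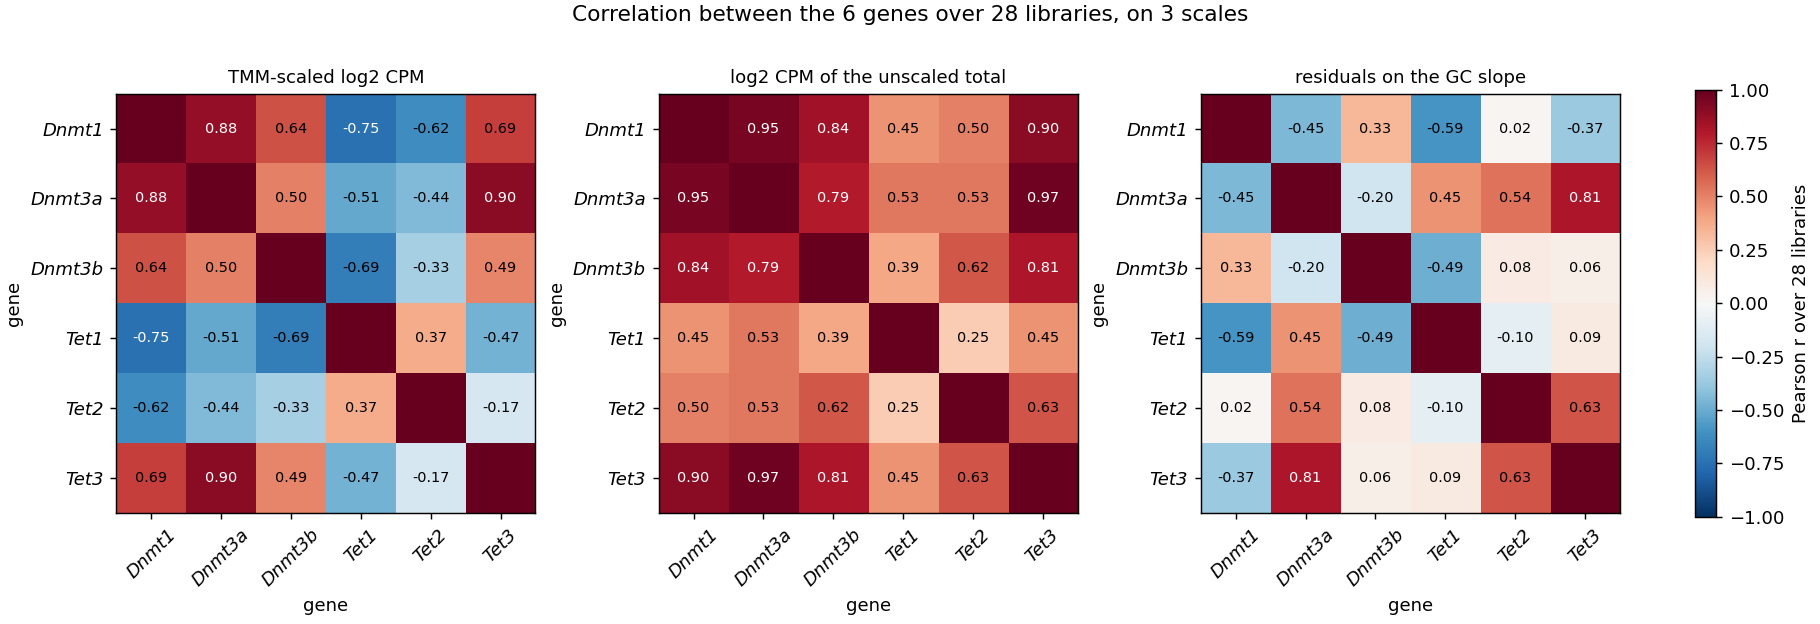
Pearson r between the 6 genes over 28 libraries on TMM-scaled log2 CPM, on log2 CPM of the unscaled total, and on residuals of TMM-scaled log2 CPM on the GC slope. Dnmt3a and Tet3 correlate at 0.90, 0.97 and 0.81 on the 3 scales, while Dnmt1 and Tet1 have -0.75, 0.45 and -0.59.

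KD unstressed library 2 stood apart for 3 members. Its residuals from the GC slope were 0.50 log2 units for Dnmt3a, 0.66 for Tet2 and 0.73 for Tet3, or 3.28, 3.81 and 3.63 SD of the residuals. Those of Dnmt1, Dnmt3b and Tet1 there were within 2 SD. Other genes were high in this library too: 9.08% of all tested genes had a residual above 2 SD in it. Dnmt3a, Tet2 and Tet3 had their highest residual there, as did 11.6% of all tested genes. The share of genes with residuals as large as those of these 3 members was not computed. KD unstressed library 2 also had the lowest share of mitochondrial counts, 2.3%, of a range up to 14.2%.

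Markers of cell types moved with the members as well. Summed neuronal markers, of which 7 of 8 were tested, correlated with Tet1 at r = 0.85 (rho 0.85, permutation p = 1e-05, adjusted p = 4.9e-05) and with Dnmt1 at -0.87 (rho -0.85, p = 1e-05, adjusted p = 4.9e-05). Summed microglial markers, 6 of 8 tested, correlated with Tet1 at -0.83 (rho -0.84) and with Dnmt1 at 0.81 (rho 0.83), with the same permutation p-values. The neuronal sum had r = -0.81 and the microglial sum r = 0.76 with the GC slope. With the slope removed from both measures, Tet1 kept 0.70 with the neuronal and -0.67 with the microglial sum (adjusted p = 6e-04 for both), and Dnmt1 had -0.61 and 0.47 (adjusted p = 0.00496 and 0.0505). On the unscaled total the r of Tet1 was -0.06 with the neuronal and 0.27 with the microglial sum, and that of Dnmt1 -0.69 and 0.91. On TMM-scaled values with the slope not removed, such relations were not particular to neurons and microglia. Summed vessel markers had r = 0.66 with Tet1 and -0.80 with Dnmt1, and summed oligodendrocyte markers 0.55 and -0.40. With the slope removed from both measures these were 0.33 and -0.46 for vessel markers (adjusted permutation p = 0.192 and 0.0537). For oligodendrocyte markers they were 0.46 and -0.32 (adjusted permutation p = 0.0537 and 0.193). On the unscaled total Dnmt1 had 0.52 with vessel and 0.04 with oligodendrocyte markers, and Tet1 0.39 and 0.35. What part cell composition has in these levels was not tested.

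Lymphocyte and cycling markers were also set beside the methyltransferases. The r of Dnmt3b was 0.49 with summed T cell markers (rho 0.46, permutation p = 0.00792, adjusted p = 0.0131) and 0.43 with summed markers of cycling cells (rho 0.42, p = 0.0243, adjusted p = 0.0364). Dnmt1 had 0.22 and 0.03, and Dnmt3a 0.05 and -0.16, with adjusted p-values from 0.331 to 0.879. With the slope removed from both measures Dnmt3b had 0.53 and 0.59 (adjusted p = 0.0187 and 0.00501), against 0.42 and 0.47 for Dnmt1 (0.0761 and 0.0505). On the unscaled total, Dnmt3b had 0.61 and 0.56 (adjusted permutation p = 0.00229 and 0.00549), and Dnmt1 0.42 and 0.31 (0.0374 and 0.145). The r of Tet1 with the T cell and cycling sums was -0.58 and -0.46 (adjusted permutation p = 0.00207 and 0.021). It was -0.67 and -0.68 with the slope removed from both measures, and -0.06 and -0.08 on the unscaled total. These differences between genes were not themselves tested.

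The genes whose log2 CPM was most like each member's, with group means removed, were named by the highest Pearson r over 28 libraries. For Dnmt1 these were Flad1, Gtpbp2 and Srrt (r = 0.991, 0.989 and 0.989), and for Dnmt3a Srebf2, Hsf1 and Rusc2 (0.986, 0.984 and 0.984). Dnmt3b had lower values, with Izumo1r, Ccnd3 and Mgmt (0.857, 0.852 and 0.851). Tet1 went with Akap6, Dixdc1 and Pclo (0.890, 0.886 and 0.882), Tet2 with Cers6, Rgs20 and Tmem67 (0.927, 0.914 and 0.909), and Tet3 with Ago2, Atg7 and Zmiz1 (0.946, 0.944 and 0.942). With the GC slope removed as well, 5 of these 18 stayed among the closest 3: Flad1 for Dnmt1 (0.768), Srebf2 for Dnmt3a (0.869), Izumo1r for Dnmt3b (0.785), Cers6 for Tet2 (0.877) and Zmiz1 for Tet3 (0.857). No gene stayed for Tet1.

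The partners of these enzymes were described from 5 lists of 64 genes. Partners of the methyltransferases, such as Uhrf1, which brings Dnmt1 to hemimethylated DNA, had 11 of 13 genes tested. No gene of this list was called in any of the 7 comparisons. The smallest unadjusted p was that of Zfp57, a zinc finger protein of imprinted loci, for the KD virus averaged over stress (log2 fold change -0.28 ± 0.14, edgeR adjusted p = 1). Zfp57 averaged 5.72 ± 0.89 CPM in KD stressed and 6.55 ± 1.73 CPM in LacZ stressed mice, and 6.07 ± 1.38 CPM in KD unstressed and 7.79 ± 2.32 CPM in LacZ unstressed mice (SD, n = 7 each). The median log2 fold change of the list for that effect was -0.01, against -0.02 for all genes.

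All 7 methyl-CpG binding proteins and all 7 TET partners were tested and 0 were called. For stress averaged over virus, the smallest p among the binding proteins was that of Mbd4, a glycosylase that binds methylated CpG, at 0.11 ± 0.08. Among the TET partners it was that of Dcaf1, a substrate receptor of a ubiquitin ligase, at -0.12 ± 0.10. Medians over the lists were -0.03 and -0.07 for that effect, against -0.01 for all genes.

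Base excision and demethylation genes had 16 of 17 tested and 0 called. Neil3, a DNA glycosylase, had the largest named difference, 0.70 ± 0.46 in LacZ stressed over LacZ unstressed mice, with 10.1 ± 6.45 and 6.2 ± 3.47 CPM (SD, n = 7 each). Against the same LacZ unstressed group, Neil3 was also 0.66 ± 0.46 in KD unstressed mice, with 9.79 ± 4.65 CPM. Tdg, the glycosylase that excises the oxidised forms made by TET enzymes, had -0.16 ± 0.13 in KD stressed over LacZ stressed mice, with 21.6 ± 3.1 and 24.2 ± 3.7 CPM. With stress averaged over virus the median of the list was 0.12, with 11 of 16 above 0, against a median of -0.01 for all genes. Of these 16 genes, 12 had a positive r with the GC slope.

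Genes of methyl donor and cofactor metabolism had 18 of 20 tested and 0 called. Slc25a26, which carries S-adenosylmethionine into mitochondria, was the single gene of all 5 lists at an unadjusted p under 0.05, at -0.21 ± 0.09 for stress averaged over virus (edgeR adjusted p = 1). Of all 19171 genes tested, 424 (2.21%) had an unadjusted p under 0.05 for that effect. Slc25a26 averaged 20.5 ± 2.55 CPM in KD stressed and 24.2 ± 5.97 CPM in KD unstressed mice, and 20.6 ± 1.61 CPM in LacZ stressed and 23.3 ± 3.19 CPM in LacZ unstressed mice (SD, n = 7 each). Mat2a, which makes S-adenosylmethionine, had -0.29 ± 0.25 in KD unstressed over LacZ unstressed mice, with 6.73 ± 1.69 and 8.21 ± 2.64 CPM.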

How the data were processed

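Per the labels' protocols, ribosome-depleted total RNA from individual mice was made into stranded libraries and sequenced in read pairs. HISAT2, featureCounts, Subread and DESeq2 are named in the submitters' processing notes. The deposited values are raw counts of fragments per gene and library, made by the authors with featureCounts 1.6.2 over whole gene spans of Ensembl release 90 (GRCm38) with no strand option, after removal of duplicates, per the file headers. Counting over spans adds intronic fragments, and fragments shared by overlapping genes are assigned to neither.

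Of 52636 identifiers, 52403 matched a symbol. Totals of 30.6 M to 44.3 M fragments give each member between 17 and 7353 fragments per library. Groups were taken from the labelled virus and treatment. Genes passing filterByExpr (19171) were fitted with edgeR 4.0.16 (R 4.3.3) over all 28 libraries, with TMM factors, 1 coefficient per group, robust quasi-likelihood tests and Benjamini-Hochberg adjustment over all genes, at a threshold of 0.05. The common biological coefficient of variation was 0.467. Log2 CPM used a prior count of 2. The GC slope was computed over 19120 genes from GENCODE M21 transcripts (GRCm38). Correlations used 100000 permutations. Alternatives used RLE and upper-quartile factors, other count filters, DESeq2 1.42.0, limma 3.58.1, sva 3.50.0 (2 surrogate variables), covariates, and each library left out.

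The 6 genes were named by symbol, and the 5 lists, the markers and the tests were chosen with earlier results of these data known. Named genes are the members, Slit1, the gene of smallest p per list and comparison (of which a few are given), and the 3 genes most like each member, leaving out predicted genes. The closest 2 libraries differed by more than sampling noise (chi-square of 11.1 per gene), so all 28 were kept as separate samples. The labels give no replicate numbers: those used here follow accession order and only name the libraries. Which libraries shared a sequencing lane is not given in the sources used here.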

Additional observations from a re-analysis of the deposited data

Results flagged for a closer look

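Tet3 in KD unstressed library 2 had 90.2 CPM, and the next highest of the 7 KD unstressed libraries had 61.8 CPM. The gap was 0.611 of the range of the group, above the 95% critical value of 0.568 for 7 samples. Of the 24 combinations of a gene and a group examined, this was the single one past that value. Chance alone takes about 1 in 20 such combinations past it, so 1 among 24 is about what chance gives. The same library also held the highest Dnmt3a (127 CPM) and Tet2 (152 CPM) levels of all 28.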

How the results depend on the processing

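No member was called under any of 41 settings, and the smallest adjusted p was 0.492. Of 1704 recomputed log2 fold changes 177 changed sign, none of them a call, and 12 had an unadjusted p under 0.05. Of these 12, 8 were for Tet3, 2 for Dnmt3b, 1 for Dnmt3a and 1 for Tet1. With the GC slope as a covariate Tet3 had 0.24 for the KD virus without stress (edgeR unadjusted p = 0.0227) and -0.26 for stress under the KD virus (0.0131), and also without KD unstressed library 2 it had 0.12 (0.126) and -0.14 (0.0714). Leaving out 1 library at a time, Tet3 ranged from 0.07 to 0.31 and from -0.32 to -0.09. Over all settings it ranged from 0.07 to 0.38 and from -0.36 to -0.09. For stress under the KD virus, another setting gave Tet3 a smaller unadjusted p than the fit with the GC slope. Genes at an unadjusted p under 0.05 numbered 68 to 424 over the 7 comparisons, against 169 to 1954 with the GC slope, 273 to 1825 with surrogate variables, 647 to 1086 with no count filter, 139 to 536 with title number, 20 to 327 with a CPM of at least 1 in 7 libraries, 73 to 606 by DESeq2 and 576 to 1258 by limma, and 0 were called in each. Without KD stressed library 2 and LacZ stressed library 4, stress averaged over virus had 1093 in place of 424. No paired analysis was possible because the labels give no replicate numbers that tie mice across groups, and the numbers used here follow accession order and only name the libraries. Leaving KD unstressed library 2 out of correlations or of the fit with the GC slope, the unscaled totals in fits and correlations, RLE and upper-quartile factors in correlations, and the residuals of both measures were chosen after seeing the data.

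Some correlations changed sign; the cause was not tested. With the unscaled total, r was 0.45 (Dnmt1 with Tet1), 0.50 (Dnmt1, Tet2), 0.53 (Dnmt3a with Tet1 and with Tet2), 0.39 (Dnmt3b, Tet1), 0.62 (Dnmt3b, Tet2), 0.45 (Tet1, Tet3) and 0.63 (Tet2, Tet3). It was 0.49 and 0.40 with the GC slope and -0.49 and -0.60 with the mitochondrial share (Tet1 and Tet2), -0.06 and -0.79 with neuronal and 0.27 and 0.46 with microglial markers (Tet1 and Tet2). For vessel markers it was 0.52 (Dnmt1), 0.51 (Dnmt3a), 0.65 (Dnmt3b) and 0.53 (Tet3), for oligodendrocyte markers 0.04 (Dnmt1) and for T cell markers 0.49 (Tet2). With residuals on the GC slope it was -0.45 (Dnmt1, Dnmt3a), 0.02 (Dnmt1, Tet2), -0.37 (Dnmt1, Tet3), -0.20 (Dnmt3a, Dnmt3b), 0.45 (Dnmt3a, Tet1), 0.54 (Dnmt3a, Tet2), 0.09 (Tet1, Tet3) and 0.63 (Tet2, Tet3). Also without KD unstressed library 2, these were -0.40, 0.33, -0.29, -0.39, 0.48 and 0.06 for the first 6 pairs, and -0.06 for Dnmt3b with Tet3. With both measures as residuals, Dnmt3a had 0.02 with the mitochondrial share, -0.08 with total count, 0.35 with neuronal, -0.38 with microglial and 0.21 with vessel markers, and Tet3 had -0.05 with total count, 0.11, -0.16 and 0.18 with those 3 lists. Among title numbers above 20, Tet2 had 0.48 with Dnmt3a, 0.03 with the GC slope and -0.65 with cycling markers, and up to 20 Dnmt1 had 0.16 with oligodendrocyte markers. RLE and upper-quartile factors changed no sign of a called correlation. Depth limits Dnmt3b most, at 17 to 165 fragments per library.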

Other observations

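KD stressed library 4 had the lowest residual of Tet1 on the GC slope (-0.37 log2 units) and the second highest Tet2 level of all libraries (134 CPM). LacZ stressed library 4 had the highest residual of 13.4% of all tested genes, the largest such share of the 28 libraries. Tet1 was among these genes (0.34 log2 units, 1.96 SD), and Tet3 had its lowest residual there (-0.39 log2 units, -1.93 SD). No member stood beyond 2 SD of the residuals in that library. The summed markers of meninges and bone reached 2501 CPM in 1 KD stressed library, against at most 87.1 CPM in any library of the other 3 groups.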
